A study of Mus musculus with 6 samples.

Results

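Neutrophils are made in the marrow from dividing granulocytic cells that stop cycling and then complete their maturation. Their granules are filled in a known order. Primary granule proteins such as elastase and myeloperoxidase are made first, secondary granule proteins such as lactotransferrin and cathelicidin next, and tertiary granule proteins such as the gelatinase MMP9 last. The step described here lies between 2 neutrophil clusters of single-cell RNA sequencing data from CD11b+ marrow cells. The cells were those that the deposited cell table gave cluster number 4 or 0 at the lowest clustering resolution and the reference label Neutrophils. They were 7258 cells of cluster 4 and 19214 cells of cluster 0, or 26472 of the 69776 cells that the authors kept. Each library contained both clusters, with 594 to 2930 cells of cluster 4 and 1986 to 6948 cells of cluster 0, so the step was taken within each of the 6 libraries.

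All mice were C57BL/6, 2 months old and untreated, and the femur-derived and mandibular-derived groups had 3 libraries each. CD11b+ cells had been pulled out of flushed marrow with magnetic beads. By the labels the femur-derived marrow came from the tibia as well, whereas the methods of the study name only the femur. Mandibles had been freed of their molars before flushing. Femur replicate 1 was female and the other 5 libraries were male. The number of mice in a library was not stated, so the spread between libraries may be partly technical. Members shared no more than 0.365% of their barcodes between any 2 libraries. The summed counts of a library held 13812923 to 67529810 unique molecular identifiers (UMIs, 1 per captured transcript molecule) for cluster 4 and 23331809 to 91662470 for cluster 0.

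Levels are given in CPM, the usual scaling of summed UMIs to a common library total, with TMM factors. A log2 fold change is cluster 0 over cluster 4 with its standard error (SE). A gene was called, and is said to have risen or fallen, when the edgeR quasi-likelihood test with library as a block gave an adjusted p under 0.05 and the change was at least 2-fold. The clusters had been drawn from the expression of the same cells, so these calls describe how steady a difference was over libraries and are no independent test of it. Of 12173 genes tested, 1354 were called higher in cluster 0 (11.1%) and 2373 lower (19.5%). By the adjusted p alone, 5065 were higher (41.6%) and 5085 lower (41.8%). The 6 levels of one cluster did not overlap the 6 of the other for 6707 genes (55.1%). The direction was the same in 6 of 6 libraries for 9456 genes (77.7%).

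Nearly all cells of cluster 4 and few of cluster 0 had been called as cycling. Between 97.6% and 99.4% of the cluster 4 cells of a library had been called in S or G2/M phase by the authors, with a mean of 98.7% ± 0.716 (SD, n = 6). In cluster 0 the share was 5.47% ± 3.43 (SD, n = 6), from 2.21% to 11.8%. The highest share belonged to femur replicate 1, in which 540 cluster 0 cells had fewer than 2000 UMIs and the cluster 0 cells called cycling had a median of 1876 UMIs. Without this library the cluster 0 share was 4.197% ± 1.61 (SD, n = 5). Phases were called from genes of the cells that were clustered, so these shares are a description.

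Cells of cluster 4 also carried more RNA molecules. The median was 21655 ± 1834 UMIs per cell (SD, n = 6) in cluster 4 and 10984 ± 1682 in cluster 0. The ratio of cluster 4 to cluster 0 lay between 1.76 and 2.38 in the 6 libraries, with a mean of 2.00. The median was lower in cluster 0 in 6 of 6 libraries (exact two-sided sign-flip permutation test of the differences, p = 0.0312, the smallest that 6 libraries allow). The clusters had been drawn from expression of the same cells, so this p is a description. The median number of genes per cell was 3843 ± 240 against 2380 ± 254 (SD, n = 6). CPM values are shares of this total, so a gene can keep its share while its molecules per cell fall. Counted per cell, the median of all genes moved by -0.996 on the log2 scale, and the split of 2-fold calls changed from 1354 higher and 2373 lower to 103 higher (0.846%) and 6062 lower (49.8%). By the adjusted p alone, 784 genes were higher (6.44%) and 10007 lower (82.2%) per cell. List medians that change sign between the CPM and the per-cell scale are given with the lists described.

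**Figure D1:**
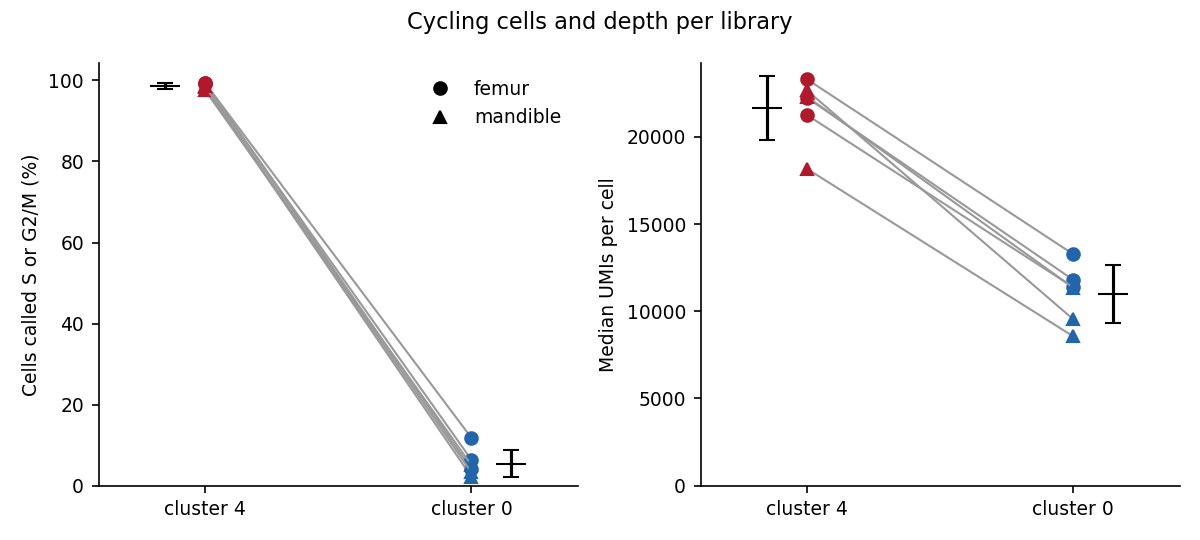
Share of cells called in S or G2/M phase (left, percent) and median UMIs per cell (right) in cluster 4 and cluster 0, with each line joining the 2 clusters of a library and black bars giving mean ± SD over 6 libraries. The cycling share lies between 97.6% and 99.4% in cluster 4 and between 2.21% and 11.8% in cluster 0, and every library has fewer UMIs per cell in cluster 0.

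The main proteases of primary granules had far higher levels in cluster 4. Elane encodes neutrophil elastase (chr10:79886247-79888215, plus strand, mm10). Its level in cluster 4 was 422, 485 and 487 CPM in the femur libraries and 464, 867 and 696 CPM in the mandible libraries. In cluster 0 the corresponding levels were 3.57, 3.97 and 6.77 CPM and 2.40, 6.501 and 7.42 CPM. All 6 levels of cluster 4 were far above all 6 of cluster 0, and the log2 fold change was -6.79 ± 0.15 (SE).

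Prtn3, the neighbouring gene for proteinase 3 (chr10:79874476-79883174), ranged from 344 to 715 CPM in cluster 4, with a median of 386 CPM, and from 2.33 to 12.1 CPM in cluster 0, with a median of 8.21 CPM. Mpo, the myeloperoxidase gene (chr11:87793581-87804413), ranged from 82.6 to 156 CPM and from 1.93 to 5.58 CPM, with medians of 101 and 2.57 CPM. The log2 fold changes were -5.82 ± 0.21 for Prtn3 and -5.18 ± 0.12 for Mpo (SE). Ctsg, which encodes cathepsin G, fell by 4.90 and Prss57, another serine protease, by 2.35 on the log2 scale. Pooled B cells of the same libraries, which should lack these transcripts, measured 5.85 CPM for Elane, 7.72 CPM for Prtn3 and 5.61 CPM for Mpo. The cluster 0 levels of Elane, Prtn3 and Mpo were close to those of B cells on this scale. The source of the low levels was not tested.

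The share of cells with a UMI depended on depth. An Elane UMI was found in 34.4% ± 2.86 of cluster 4 cells (SD, n = 6) and in 4.64% ± 1.74 of cluster 0 cells, against 2.43% ± 1.84 of B cells, whose median depth was 4118 UMIs (mean over libraries). The share for Prtn3 was 48.9% ± 6.12 in cluster 4, from 38.6% to 55.4%, with 6.73% ± 2.501 in cluster 0 and 2.92% ± 1.67 in B cells. The share for Mpo was 16.9% ± 3.55 in cluster 4, 3.00% ± 1.34 in cluster 0 and 1.59% ± 1.51 in B cells. With each cell thinned to 2000 UMIs, the Elane share was 17.6% ± 2.82 in cluster 4 and 0.972% ± 0.341 in cluster 0. Of the primary granule list, 5 of 11 tested genes were called lower (45.5%) and 1 was called higher (9.09%), against 19.5% and 11.1% of all genes. The rise was Srgn (log2 fold change 1.01 ± 0.08), which encodes the granule proteoglycan serglycin and changed by 0.01 per cell. Granule genes that are also used in lysosomes stayed within the 2-fold limit, with log2 fold changes of -0.32 for Cd63 and 0.52 for Ctsc.

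Fcnb, which encodes ficolin-B, was found more widely. It fell from a median of 1364 CPM (1043 to 1588) to 248 CPM (169 to 394), with a log2 fold change of -2.46 ± 0.10 (SE), and its UMIs were found in 96.6% ± 1.14 of cluster 4 cells and 41.5% ± 8.35 of cluster 0 cells. B cells measured 7.95 CPM, with a UMI in 3.87% of them, so the cluster 0 level of Fcnb lay above that of B cells. Ms4a3, a membrane protein of granulocyte and monocyte progenitors, fell from 160 to 18.4 CPM, and Nkg7, a granule membrane protein best known from cytotoxic lymphocytes, fell from 69.3 to 4.01 CPM.

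Secondary granule transcripts were abundant on both sides of the step. Camp, the cathelicidin gene (chr9:109847379-109849617), ranged from 35630 to 46335 CPM in cluster 4 and from 26953 to 38088 CPM in cluster 0, so the ranges overlapped, although Camp was lower in cluster 0 within 6 of 6 libraries (log2 fold change -0.43 ± 0.07). Ltf, the lactotransferrin gene (chr9:111019271-111042767), ranged from 7177 to 8399 CPM and from 12456 to 15327 CPM, without overlap (0.78 ± 0.05). Ngp, for neutrophilic granule protein, gave 0.17 ± 0.05 and Lcn2, for lipocalin-2, gave 0.34 ± 0.05 on the same scale.

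None of these 4 genes reached the 2-fold limit, and at least 99.6% of the cells of either cluster carried a UMI of each on average. Among B cells, at their lower depth, the share was 77.8% for Camp and 47.4% for Ltf. B cells measured 443 CPM for Camp and 170 CPM for Ltf, far below both clusters. Of 12 secondary granule genes tested, 2 were called higher (16.7%, against 11.1% of all genes), Mmp8 and Olfm4, and none lower. Mmp8 is also in the tertiary granule list. Their median log2 fold change was 0.33 against 0.00 for all genes, and it turned to -0.67 when counted per cell. Set against the label precursors, cluster 4 had the higher Elane and Mpo levels and the cycling phases, which describe cells that were clustered on such genes, whereas its cells also carried the secondary granule transcripts that mark the immature stage.

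Genes of the tertiary granule list, which also covers the gelatinase stage and shares Mmp8 with the secondary list, rose together. Mmp8, the neutrophil collagenase gene (chr9:7558456-7568485), measured 151, 216 and 282 CPM in the cluster 4 cells of femur libraries and 337, 566 and 435 CPM in those of mandible libraries. In cluster 0 it measured 2464, 2626 and 1817 CPM and 3729, 2967 and 2491 CPM. The groups did not overlap, and the log2 fold change was 3.11 ± 0.21 (SE), or 2.11 per cell. Mmp9, the gelatinase B gene (chr2:164940780-164955850), ranged from 137 to 380 CPM and from 1207 to 1903 CPM, with medians of 269 and 1578 CPM (2.56 ± 0.14).

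Of 6 genes in the tertiary granule list, 6 were called higher, against 11.1% of all genes, with log2 fold changes from 1.59 for the membrane metalloproteinase Mmp25 to 3.11 for Mmp8. The others were Retnlg (2.03), Adam8 (2.22) and Slc11a1 (1.91), a resistin-like secreted protein, a sheddase and the phagosomal metal transporter. The same 6 genes were also higher per cell at the adjusted p alone, against 6.44% of all genes, with a median of 1.122. B cells measured 53.8 CPM for both Mmp8 and Mmp9, so the cluster 4 levels were above those of B cells.

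**Figure D2:**
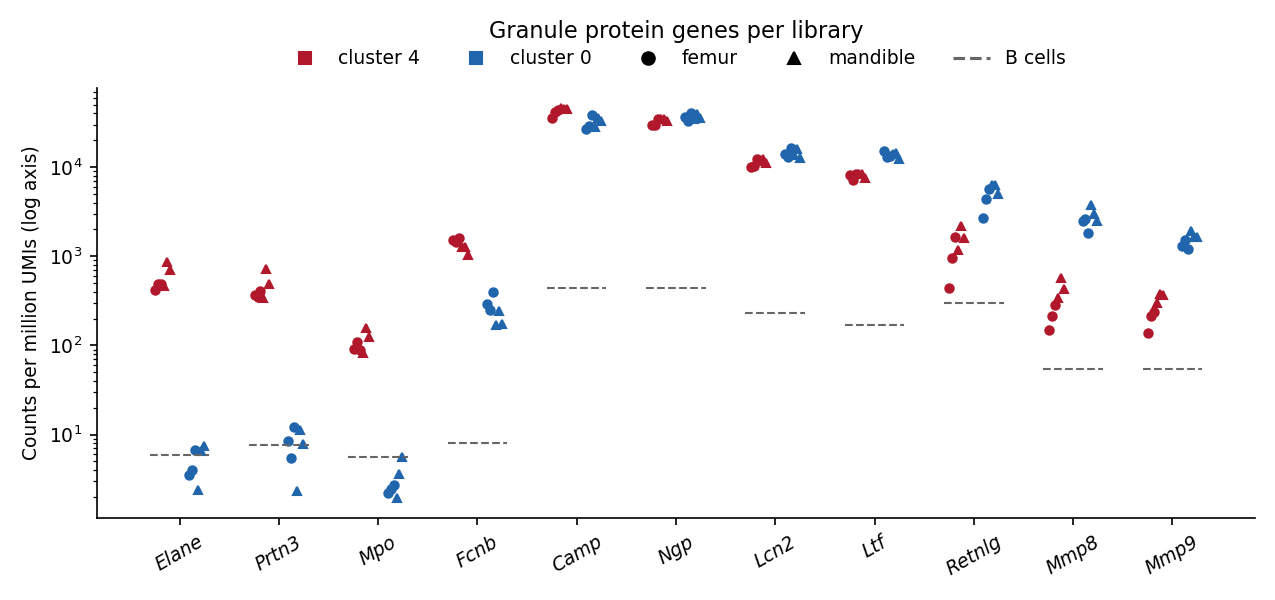
Level of 11 granule protein genes in each of 6 libraries (CPM, log axis), with cluster 4 in red, cluster 0 in blue, and a dashed line for pooled B cells. Elane, Prtn3 and Mpo drop to about the B cell line in cluster 0, Camp, Ngp, Lcn2 and Ltf stay high in both clusters, and Retnlg, Mmp8 and Mmp9 are higher in cluster 0 in every library.

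Among called genes with the same direction in 6 of 6 libraries and at least 50 CPM in one cluster, 406 were higher and 394 lower in cluster 0. After Mmp8, the 11 largest rises were Thbs1, Acvrl1, Cd55, Nt5e, Elovl7, Mmp9, Map4k4, Fpr1, Bmx, Scrg1 and Rin2, with log2 fold changes from 2.27 to 2.97. Thbs1 encodes the matrix protein thrombospondin-1 and ranged from 18.4 to 56.3 CPM in cluster 4 and from 120 to 555 CPM in cluster 0. Acvrl1, a receptor of the TGF-beta family, ranged from 6.42 to 20.7 CPM and from 72.0 to 98.9 CPM. Cd55, which protects cells from complement, and Nt5e, the enzyme CD73 that makes adenosine, rose by 2.89 ± 0.18 and 2.72 ± 0.15 on the log2 scale. Each of these 12 rises was also called per cell, at 1.26 or more, against 0.846% of all genes. The 12 had been chosen as the largest rises in CPM, and the per-cell scale moved the median of all genes by -0.996. Their calls per cell were thus largely fixed in advance.

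Of 42 receptor and surface genes tested, many of them sensors of mature neutrophils, 25 were called higher, none lower and 17 in neither direction, against 11.1% and 19.5% of all genes. Their median log2 fold change was 1.16, which became 0.16 per cell. There 20 were higher and 15 lower at the adjusted p alone, against 6.44% and 82.2% of all genes. Fpr1 and Fpr2, receptors for bacterial formyl peptides, rose by 2.43 ± 0.14 and 2.00 ± 0.09. Cxcr2, the chemokine receptor that draws neutrophils into blood, ranged from 62.6 to 130 CPM in cluster 4 and from 290 to 390 CPM in cluster 0 (1.82 ± 0.09).

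Ly6g, the neutrophil surface antigen, ranged from 180 to 335 CPM and from 702 to 901 CPM (1.64 ± 0.06). Csf3r, the receptor for the growth factor G-CSF, rose by 1.19 ± 0.05, and Itgam, which encodes the CD11b used to isolate the cells, by 1.21 ± 0.05. Cxcr4, the receptor that holds neutrophils in marrow, was higher within 6 of 6 libraries but stayed within the 2-fold limit (0.68 ± 0.04). The stem cell factor receptor Kit had a log2 fold change of -0.84 ± 0.06, the lowest of the list.

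Of the oxidase that makes superoxide, Cybb, for the catalytic subunit, gave 0.73 ± 0.04 and Cyba, for its partner, gave -0.08 ± 0.05. The median of 7 NADPH oxidase genes was 0.26, or -0.75 per cell. S100a8 and S100a9, which encode the calprotectin subunits, gave 0.10 ± 0.07 and 0.17 ± 0.06 and were in neither direction called. The median of 7 S100 genes was 0.19, or -0.81 per cell. S100a6 rose by 1.93 ± 0.10 and S100a11 by 1.06 ± 0.04, while per cell S100a11 changed by 0.05.

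Many cell cycle genes fell. Among genes with at least 50 CPM in one cluster, and with 5 histone genes set aside, the 12 largest falls were, beside Elane, Prtn3 and Mpo, those of Esco2, Clspn, Fbxo5, Dut, Rrm2, Pbk, Brip1, Ccne2 and Pola1, with log2 fold changes from -5.84 to -5.16. Rrm2, a subunit of the enzyme that makes deoxyribonucleotides, ranged from 187 to 196 CPM in cluster 4 and from 1.28 to 7.97 CPM in cluster 0. Of all genes 19.5% fell. Of 47 DNA replication genes tested, 46 fell, and the median log2 fold change was -3.96. The exception was Rfc1 of the clamp loader, at -0.78 ± 0.04. Of 42 mitosis and kinetochore genes, 42 fell, with a median of -3.61. Of 61 clustered histone genes, 58 fell, with a median of -4.07, among them Hist1h2ap, which ranged from 918 to 2755 CPM in cluster 4 and from 29.7 to 80.7 CPM in cluster 0. Histone genes lie in families with near-identical copies, so the split of UMIs among them is uncertain. Many of these genes also serve to call phases or move with them, so the lists restate the phase shares in named genes.

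The promoters of the mitosis genes are shown because these genes fell together. Promoter sequences came from RefSeq on GRCm38.p6 and were read over the 250 bases before the start of the gene. They were searched on both strands for the CCAAT box (CCAAT, bound by NF-Y) and for the cell cycle genes homology region (TTTGAA). Of 42 mitosis genes, 35 matched a promoter. Of these, 77.1% held a CCAAT box, 31.4% held TTTGAA and 28.6% held both, against 36.9%, 11.2% and 4.43% of the 9254 tested genes with a promoter. Of 39 matched DNA replication genes, 61.5% held a CCAAT box and 12.8% held TTTGAA. A match is a description of the letters in this window, not of binding.

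Among 10 mitosis genes with both motifs, 4 had no annotated exon of GENCODE vM21 within the window, and the 3 of these with the highest mean level are printed. Capitals mark CCAAT or TTTGAA, or their reverse complements ATTGG and TTCAAA. Top2a, for topoisomerase II alpha, fell from a median of 822 CPM to 29.1 CPM and its window is chr11:99024190-99024439, minus strand. Mki67, for the Ki-67 antigen, fell from 545 to 49.2 CPM and its window is chr7:135716380-135716629, minus strand. Kif11, for a spindle motor, has its window at chr19:37376132-37376381, plus strand.
Top2a: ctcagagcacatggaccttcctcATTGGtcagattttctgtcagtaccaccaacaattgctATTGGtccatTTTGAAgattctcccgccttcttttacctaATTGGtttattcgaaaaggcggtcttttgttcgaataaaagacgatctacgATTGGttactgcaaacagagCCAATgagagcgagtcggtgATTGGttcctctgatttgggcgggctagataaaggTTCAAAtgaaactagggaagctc
Mki67: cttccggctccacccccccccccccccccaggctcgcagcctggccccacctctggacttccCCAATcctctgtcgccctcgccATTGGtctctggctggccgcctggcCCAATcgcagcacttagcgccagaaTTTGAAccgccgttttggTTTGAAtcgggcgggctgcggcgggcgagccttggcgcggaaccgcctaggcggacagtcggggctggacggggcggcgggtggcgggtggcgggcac
Kif11: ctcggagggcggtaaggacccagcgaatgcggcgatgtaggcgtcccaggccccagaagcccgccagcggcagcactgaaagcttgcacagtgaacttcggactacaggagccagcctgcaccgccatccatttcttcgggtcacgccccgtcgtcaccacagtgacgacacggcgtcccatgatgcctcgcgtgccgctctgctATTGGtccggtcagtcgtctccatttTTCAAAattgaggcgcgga

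The window of Top2a held 6 CCAAT boxes and 2 homology regions, that of Mki67 held 3 and 2, and that of Kif11 held 1 of each. Of 8 matched primary granule promoters, 1 held a CCAAT box and 2 held TTTGAA. A C/EBP site form (TTNNGNAA) was found in 8 of 10 matched secondary granule promoters, in 1 of 8 primary granule promoters, in 4 of 5 tertiary granule promoters and in 29% of those of tested genes.

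Of 20 cyclins, kinases and brakes tested, 8 were called lower (40%) and 2 higher (10%), against 19.5% and 11.1% of all genes. The E-type cyclins Ccne1 (-5.59 ± 0.21) and Ccne2 (-5.19 ± 0.10) fell most, and Cdk4 fell by 3.03 and Cdk6 by 1.01. The kinase inhibitors Cdkn2c and Cdkn1a also fell, by 4.19 and 3.24. Cdkn1b, for the inhibitor p27, stayed within the 2-fold limit at 0.40. The antiproliferative genes Btg1 and Btg2 rose by 1.06 ± 0.05 and 1.32 ± 0.06, which became 0.06 and 0.32 per cell.

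Many genes for building ribosomes and nucleotides fell as well. Of 82 ribosomal protein genes, 48 fell (58.5%) and 1 rose (1.22%), against 19.5% and 11.1% of all genes, with a median log2 fold change of -1.07. The rise was Rpl3l (1.81 ± 0.11), a paralogue known from muscle, at 9.30 CPM in cluster 0. Rps9 measured 1149 and 1139 CPM on average (-0.03 ± 0.05), whereas Rpl36a fell by 2.33 ± 0.08. Of 32 ribosome biogenesis genes, 22 fell (68.8%) and 1 rose, the RNA polymerase I subunit Polr1a (1.42 ± 0.06). Nop58 and Nop56, which guide methylation of ribosomal RNA, fell by 3.20 and 2.74. Of 18 genes of purine, pyrimidine and one-carbon synthesis, 15 fell (83.3%), led by the CTP synthase Ctps (-5.30 ± 0.20), and 0 rose.

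Of 78 mitochondrial ribosome genes 39 fell (50%), with a median of -0.97, and of 77 nuclear genes of oxidative phosphorylation 10 fell (12.99%), with a median of -0.50, against 19.5% of all genes. By the adjusted p alone, 69 of these 77 genes were lower, against 41.8% of all genes. The 13 genes encoded by mitochondrial DNA were lower in cluster 0 in 6 of 6 libraries, yet none passed 2-fold, with log2 fold changes from -0.84 to -0.26. Of all genes, 77.7% had the same direction in 6 of 6 libraries. Glycolysis gave a median of 0.31, or -0.69 per cell, and the 2 genes called higher of 16 (12.5%, against 11.1% of all genes) were the glucose transporters Slc2a1 (1.08 ± 0.06) and Slc2a3 (1.48 ± 0.06). Pygl, which releases glucose from glycogen, rose by 1.126 ± 0.04, while the median of 10 glycogen genes was 0.33, or -0.68 per cell. Of 19 cholesterol synthesis genes 4 rose (21.1%, against 11.1% of all genes), with Msmo1 highest at 1.76 ± 0.08, and the list median of 0.73 became -0.27 per cell.

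Interferon response genes rose more often than not. Of 19 tested, 14 were called higher (73.7%) and 1 lower (5.26%), against 11.1% and 19.5% of all genes, with a median log2 fold change of 1.26. Per cell the median was 0.27, with 12 higher and 4 lower at the adjusted p alone, against 6.44% and 82.2% of all genes. Oas3, an antiviral enzyme, ranged from 12.4 to 23.1 CPM in cluster 4 and from 58.5 to 78.0 CPM in cluster 0 (1.97 ± 0.08). The transcription factor Irf7 rose by 1.53 ± 0.07 and Isg15 by 1.25 ± 0.06. The gene that fell was Ifit2 (-1.48 ± 0.08).

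Of 18 inflammatory ligands and NF-kB targets, 8 rose (44.4%) and 0 fell, against 11.1% and 19.5% of all genes, with a median of 0.99. It became -0.01 per cell, with 3 higher and 6 lower at the adjusted p alone, against 6.44% and 82.2% of all genes. Il1rn, for the interleukin-1 receptor antagonist, rose by 2.12 ± 0.09, and Il1b by 1.22 ± 0.10, the latter by 0.21 per cell. In the actin and motility list, 5 of 26 genes were called higher (19.2%, against 11.1% of all genes), among them Capg (1.60 ± 0.06), an actin-capping protein, and Lsp1 (1.32 ± 0.05). The list median of 0.53 became -0.47 per cell. There 3 were higher and 19 lower at the adjusted p alone, against 6.44% and 82.2% of all genes. The tubulin genes Tuba1b and Tubb5 fell by 4.65 and 4.14.

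**Figure D3:**
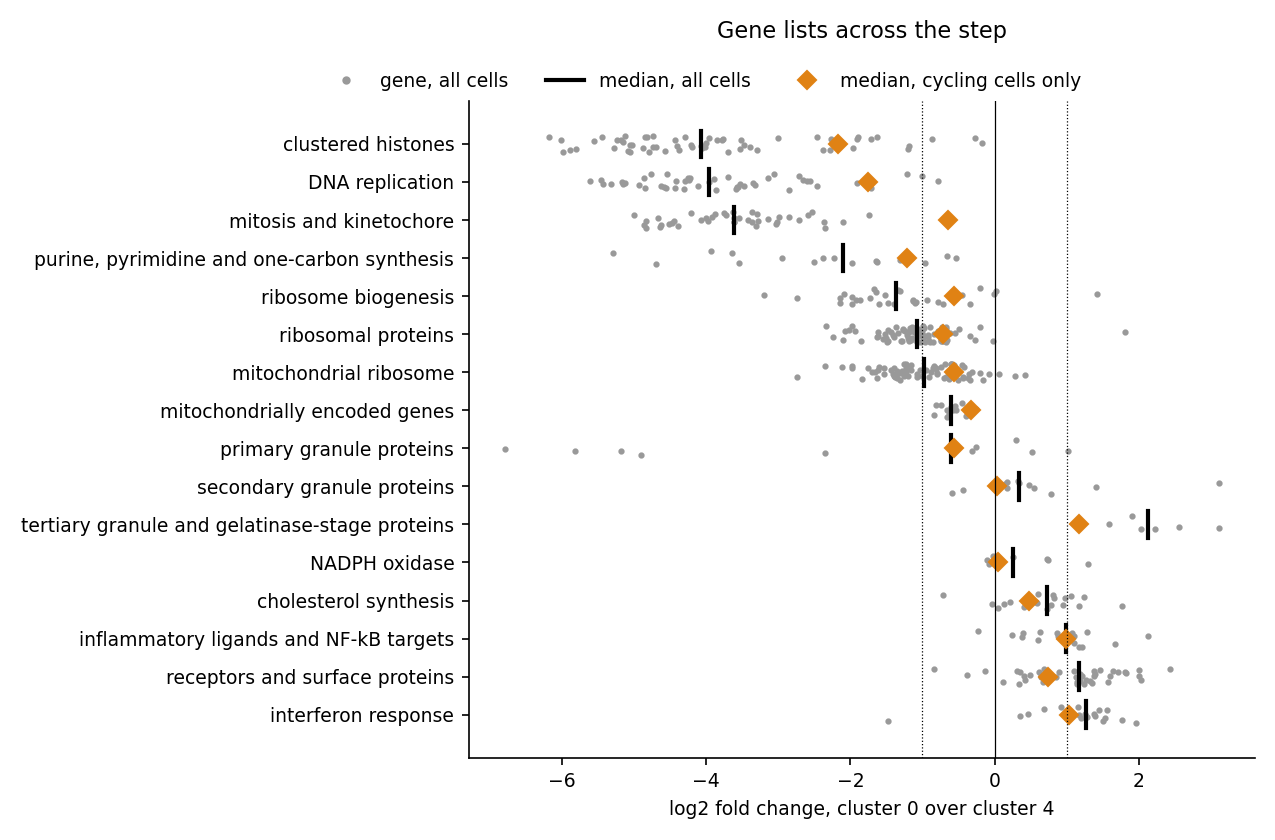
Log2 fold change of each gene (grey points, cluster 0 over cluster 4, all cells), median of each gene list (black bar) and the median with cycling cells only (orange diamond). Histone, replication and mitosis lists lie far below 0, and their medians lie nearer to 0 among cycling cells, as does that of the tertiary granule genes (2.12 and 1.17).

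Of 44 transcription factors tested, 7 were called higher (15.9%) and 9 lower (20.4%), shares near the 11.1% and 19.5% of all genes. The list median of 0.08 became -0.93 per cell. The factors that fell were E2f7 (-4.76 ± 0.14), Mxd3 (-4.72 ± 0.21), Mybl2, Foxm1 (-4.09 ± 0.22), Myc, E2f8, E2f1, Gfi1 and Id1. Other factors known from dividing cells stayed within the 2-fold limit, with -0.44 for E2f2, -0.52 for E2f3, -0.78 for E2f4, -0.66 for Tfdp1 and -0.65 for Myb. Gfi1, a repressor needed for neutrophil fate, fell by 1.37 ± 0.06, from 23.7 to 28.0 CPM in cluster 4 to 9.26 to 10.9 CPM in cluster 0. Cebpe, which drives secondary granule genes, gave -0.57 ± 0.05, and Cebpa, Cebpb and Cebpd gave between 0.11 and 0.46, all within the 2-fold limit. Mxd1, a repressor that opposes Myc, ranged from 155 to 297 CPM and from 476 to 855 CPM (1.65 ± 0.07). Its partner Max rose by 1.30 ± 0.07, the retinoic acid receptor Rara by 1.66 ± 0.11 and Foxo3 by 1.39 ± 0.06. Junb ranged from 108 to 297 CPM and from 301 to 713 CPM (1.32 ± 0.07), and Fos rose by 1.06 ± 0.06 with overlapping ranges. Also called higher was Meis1, at under 1 CPM in both clusters on average.

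When only cycling cells of both clusters were compared, a comparison added after the data had been seen, 572 genes were called higher (5.29%) and 944 lower (8.74%) of 10805, or 2806 (26%) and 2952 (27.3%) by the adjusted p alone. The cluster 0 sums then held 588461 to 6959145 UMIs per library. Elane, at -5.34, Prtn3, at -3.71, and Mpo, at -3.59, still fell on the log2 scale, as did Fcnb at -1.31. Mmp8 (1.16) and Mmp9 (1.31) still rose, whereas Ltf measured 0.15 and Ngp -0.07. Of 42 mitosis genes, 14 were called lower, with a median of -0.65. Of the replication genes 45 were called lower, with a median of -1.75. Of 7 monocyte markers, 6 were higher in cluster 0 in this comparison, against 1 among all cells, and the part of such cells in the other changes was not tested.

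Cells of cluster 4 called in G1 phase were few, with 76424 to 877946 UMIs per library, so the comparison of G1 cells (349 genes higher, 3.43%, and 812 lower, 7.97%, of 10184) rests on little. The step differed between cycling and G1 cells for 1253 of 11358 genes (11%), 436 of them (3.84%) with a higher and 817 (7.19%) with a lower change among cycling cells. That split turned to 660 higher and 142 lower with scaling by total UMIs, so no direction is read from it. The count was 759 without femur replicate 1, 644 without femur replicate 2 and 639 without mandible replicate 1. Among genes with at least 10 CPM in one cluster, the largest differences were those of Pif1, Cdc25c, Prr11, Gas2l3 and Troap (4.17 to 4.60 on the log2 scale) and, in the other direction, Ccne2, Plcb4, Phlpp1 and Gm27211 (-3.63 to -2.22). The first 5 include genes by which phases are commonly called.

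Transcripts of other cell types were low in both clusters. The summed level of 7 monocyte markers lay between 16.4 and 47.9 CPM in cluster 4 and between 23.1 and 42.4 CPM in cluster 0. For B cell markers, 4 of 7 were tested, at 32.5 to 56.9 CPM and 36.3 to 63.3 CPM. Erythroid markers (4 of 7 tested) varied between libraries, at 10.1 to 212 CPM and 20.7 to 221 CPM. Of T and NK cell markers 2 of 5 were tested and went opposite ways, since Nkg7 fell and Cd3d rose from 4.02 to 14.2 CPM. Bone, stroma and tooth markers (5 of 6 tested, 3 called higher) measured 1.504 to 18.3 CPM and 4.01 to 36.9 CPM, and platelet markers (4 tested, 2 called higher) stayed under 10 CPM. Of all genes, 11.1% were called higher. Per cell, 0 of the 5 bone, stroma and tooth markers and 0 of the 4 platelet markers were higher at the adjusted p. Of all genes, 6.44% were higher on that scale. The list medians changed sign per cell, from 1.01 to -0.04 for bone, stroma and tooth, from 0.96 to -0.06 for platelet, from 0.43 to -0.58 for erythroid and from 0.08 to -0.93 for B cell markers. The part of these cells in the step was not tested. Cluster 4 was less pure by reference label, since 95.2% of its cells were labelled Neutrophils, 2.81% pro-B cells and 1.17% stem cells, against 99.8% Neutrophils in cluster 0.

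The share of the clusters and the step were then compared between the sites. The study compared levels between the sites within each cluster, which was not tested here. A site difference shared by both clusters would leave the step unchanged. The rule that chose the cells did not use site, but the authors had integrated the libraries before clustering, and each library came from 1 site. Whether integration changed the site differences was not tested. Cluster 4 made up 25.1%, 27.5% and 29.7% of the cells of both clusters in the femur libraries and 20.1%, 29.99% and 27.6% in the mandible libraries. The means were 27.4% ± 2.31 and 25.9% ± 5.13 (SD, n = 3), a difference of -1.51 percentage points (exact two-sided permutation test, p = 0.9, with 0.1 the smallest p possible). The sites overlapped, and 2.67 ± 0.31 and 2.98 ± 0.87 cells of cluster 0 were found per cell of cluster 4. Without mandible replicate 1 the difference was 1.38 points in the other direction.

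For the difference in step between the sites, 0 of 12173 genes (0%) passed an adjusted p of 0.05 with edgeR. At an unadjusted p under 0.05 there were 410 (3.37%). DESeq2 and limma also gave 0, with 111 and 532 genes at an unadjusted p under 0.05. In simulated counts of the same size, 56% of 2-fold and 98% of 4-fold differences between the sites were recovered, so smaller differences could have been missed. Every simulated gene had the same dispersion (spread between libraries), 0.02. Among the 30 genes named as largest changes or by the study, the SE of the site difference reached 0.70, for Pbk. The median SE over all genes was 0.15. Recovery for such variable genes was not simulated. The 3 femur and 3 mandible steps did not overlap for 1077 genes (8.85%). For 3 against 3 exchangeable libraries, full separation of a gene has a probability of 0.1.

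The steps of the 30 leading and study-named genes had the same sign in both sites. The leading genes had been chosen for the same direction in 6 of 6 libraries, so their agreement was fixed in advance. Their differences, mandible minus femur, ranged from -0.85 for Prtn3 to 0.23 for Pola1 on the log2 scale, with SE from 0.10 to 0.70. Prtn3 fell by 5.41 in femur-derived and by 6.29 in mandibular-derived cells, with a difference of -0.85 ± 0.31 (SE, unadjusted p = 0.0214 and adjusted p = 1.00 with edgeR). Prtn3 was called with the number in the library names as a block (-1.01, adjusted p = 0.00959 with edgeR). That fit used only the 4 libraries, all male, whose numbers occur at both sites. It has few residual degrees of freedom, so its adjusted p rests on little. Prtn3 was also called with no filter on low counts (-0.88, adjusted p = 0.0232 with edgeR). The labels do not say what that number marks. In the sites fitted apart, Elane gave -6.57 and -7.01, and Mmp8 3.48 and 2.80, with differences of -0.41 ± 0.27 and -0.65 ± 0.36.

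Among genes with at least 10 CPM in one cluster, the 3 lowest p-values in each direction belonged to other genes. Ear2, an eosinophil-associated ribonuclease, gave log2 steps of 1.10 in femur and 0.70 in mandible libraries (difference -0.37 ± 0.08, adjusted p = 1.00 with edgeR). Fpr3, a formyl peptide receptor, gave 1.83 and 1.27, and Il13ra1 gave 1.41 and 0.94. Ccdc82 gave -0.97 and -0.66, Fkbp5 gave -0.40 and -0.10, and Kctd18 gave -1.74 and -1.06. None of these 6 differences held after adjustment.

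**Figure D4:**
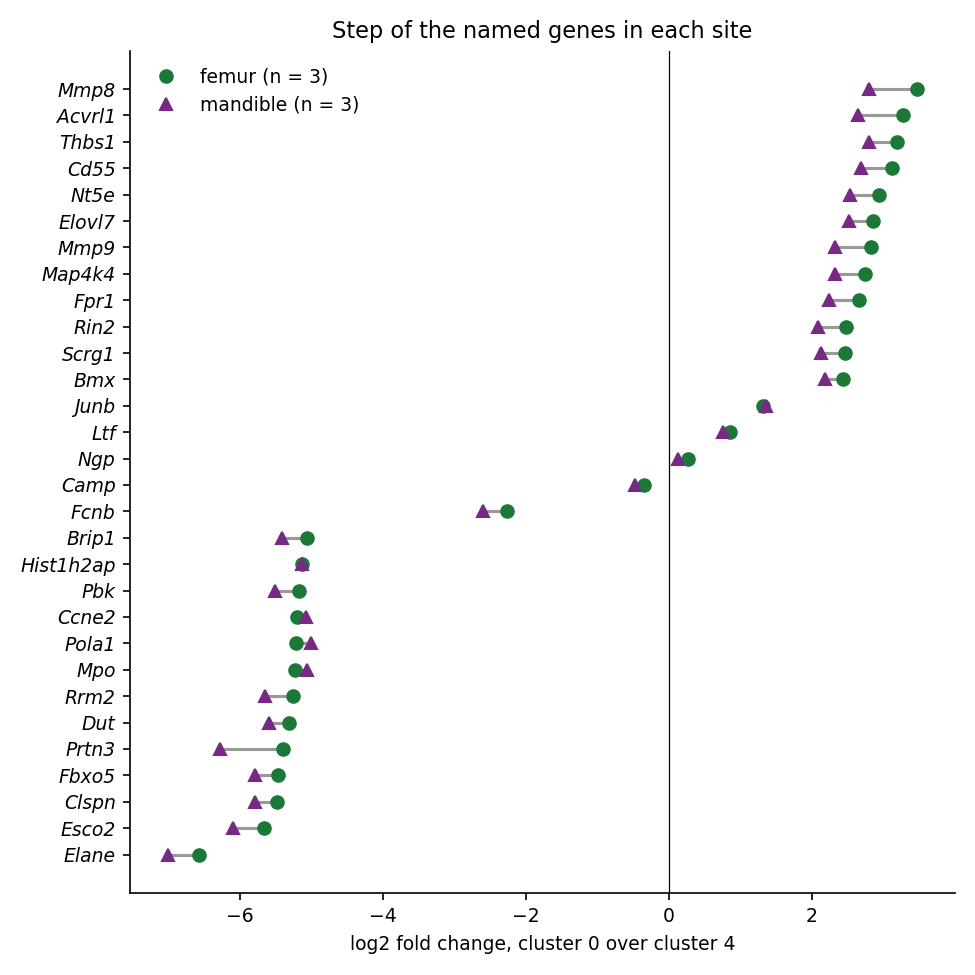
Log2 fold change of the 30 leading and study-named genes, cluster 0 over cluster 4, fitted in the 3 femur libraries (circles) and in the 3 mandible libraries (triangles). The 2 symbols of a gene lie on the same side of 0 for all 30 genes, and the widest gap is that of Prtn3. For the leading genes the shared side was fixed in advance, because they had been chosen for the same direction in every library.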

How the data were processed

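The deposited matrices held raw counts, whole UMIs per gene and barcode, which the authors made from 10x 3' libraries on mm10 with Cell Ranger (7.0.1 in the submitters' processing notes). Strand use was not given in the sources used here. The deposited cell table gave UMIs, phase, cluster, reference label and mitochondrial percent of each kept cell. Cells had been filtered by the authors on gene number and mitochondrial share, and they normalised and integrated libraries in Seurat under R 4.1.0 before clustering, but doublet removal was not given. The deposited marker table (log2 fold changes and p-values over cells) was not used.

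Counts were summed per library and cluster, and fitted with edgeR 4.0.16 (R 4.3.3, TMM, default filter on low counts, library as block). The fit was checked on simulated data. DESeq2 1.42.0 and limma 3.58.1 were alternatives. Sites were compared by the site-by-cluster term. Members, gene lists, markers and naming rules were chosen with earlier results of these data known. Named genes were the 12 largest rises and falls called in 6 of 6 libraries at 50 CPM or more (5 histone genes skipped), the most abundant and most changed list members, and 9 genes named by the study. Ctsg, Prss57, Ctsc, Adam8, Slc11a1, Kif11, Rpl3l, Irf7, Isg15, Ifit2, Il1b and the Cdk and Cdkn genes were named after their values were seen. Positions are mm10, GENCODE vM21, where 99.85% of 32285 gene IDs matched. Summed counts differed between libraries of a site by more than counting error, with a chi-square per degree of freedom of 10.7 to 182. That value was pooled over genes and grows with depth, and abundant genes were not looked at apart. A few genes are not reported here.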

Additional observations from a re-analysis of the deposited data

Results flagged for a closer look

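For 11 of 260 sets of 6 libraries, 1 library lay apart from the others by more than Dixon's 95% limit of 0.625 for the gap over the range. Chance alone gives about 1 in 20 such sets. The values are the log2 ratio of cluster 0 to cluster 4 within a library, with 1 CPM added to both levels. In mandible replicate 1 the step of Dut was -6.07 (others -5.12 to -4.62), that of S100a11 was 1.14 (others 1.02 to 1.05), that of Rpn2 was -1.85 (others -1.39 to -1.24) and that of Zbp1 was 1.82 (others 1.43 to 1.58). In mandible replicate 2 the step of Ctps was -2.32 (others -2.59 to -2.496) and that of Jund was 0.50 (others 0.78 to 0.90). In mandible replicate 3 the step of Klf2 was 1.08 (others 0.61 to 0.72). In femur replicate 1 the step of Klf4 was 0.40 (others -0.28 to -0.08) and that of Meis1 was 0.67 (others 0.32 to 0.40). In femur replicate 3 the step of Klf5 was -0.14 (others 0.05 to 0.10) and that of Csf2rb was 0.53 (others 0.39 to 0.41). All but the steps of Klf4 and Klf5 had 1 sign in 6 of 6 libraries.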

How the results depend on the processing

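Counts of genes called higher or lower stayed within 1.5 times of 1354 and 2373 under 15 of 19 alternatives each, including no replicate block, DESeq2, other scalings and either site alone. They moved to 349 and 812 with G1 cells only, 103 and 6062 with UMIs per cell, 572 and 944 with cycling cells only, and 251 and 567 with cycling cells thinned to 2000 UMIs. Scaling by total UMIs moved the median of all genes by -0.12 on the log2 scale and gave 29% of calls as higher, against 36.3%. Leaving out 1 library gave 1322 to 1470 higher and 2335 to 2454 lower. With G1 cells only, 7 genes had a step that differed by site, 3 with a higher and 4 with a lower value in mandible. The lower ones included Olfm4 (-1.94, adjusted p = 0.000286 with edgeR) and Hist1h2ap (-1.15, adjusted p = 0.0205 with edgeR). Genes whose step differed by site numbered 6 with no filter on low counts and 3 with cycling cells only (Hbb-bs, Hba-a1 and Hba-a2, red cell transcripts). They numbered 2 (Prtn3 and Rsad1) with a library-number replicate block in the 4 male libraries whose numbers occur at both sites. With each library left out they numbered 0 to 0. With the replicate number of the titles as a block the count was 0. Deviations of the steps from the mean of their site were correlated between femur and mandible libraries. Libraries with the same title number gave 0.374, -0.516 and 0.334, and those sharing 6 or 7 in their names gave 0.526 and 0.64. Deviations within a site sum to 0, so these values depend on each other and are at most a hint. Whether either number pairs the libraries was not tested. Genes whose step differed between cycling and G1 cells moved from 1253 to 590 in thinned cells, 2642 with no filter and 802 with scaling by total UMIs, and to 639 to 984 with each library left out. The cycling share moved by -94.4 to -92.7 points and median UMIs by -10884 to -10181 with each library left out. With G1 cells only, median UMIs moved by -12451 ± 13088 (SD, n = 6) and were lower in cluster 0 in 5 of 6 libraries. Femur replicate 1 went the other way, with 4566 in cluster 4 and 13621 in cluster 0. The site difference in cluster 4 share ranged from -3.55 to 1.38 points with each library left out. Most of the 30 named genes had been chosen for large changes with the same direction in 6 of 6 libraries, which largely fixed their stability in advance. Of 389 values of these 30 genes, 382 kept their direction and their side of an adjusted p of 0.05. Of those, Acvrl1 (0.96) and Elovl7 (0.89) in cycling cells and Junb per cell (0.31) and in G1 cells (0.90) no longer reached 2-fold, and Camp per cell (-1.43) did. Reversed were Ccne2 with G1 cells (0.66), Ltf per cell (-0.22), and Ngp per cell (-0.83) and in cycling cells (-0.070). Ngp was also no longer past the adjusted p with total UMIs, G1 cells or without femur replicate 1. The causes were not tested.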
